A study of Mus musculus with 30 samples.

Results

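The sclera of 8-week-old mice was set against that of 2-week-old mice, over every gene that the arrays measured with a probe set of its own. Week 8 and week 2 each had 6 labelled arrays, 12 of the 30 of the series, and each array held the RNA of 1 sclera of 1 mouse. On week 2 replicate 4, however, the deposited value of each of the 35556 transcript clusters equalled the mean of the other 5 week 2 arrays to within 0.001. It carried no measurement of its own, so week 2 was counted as 5 arrays, and 11 arrays entered the comparison with 6 in week 8. In week 6, which was used only for the spread, the mean of replicates 4 and 6 equalled the mean of the other 4 arrays in the same way. All mice were untreated, of the albino inbred strain Balb/cJ and of the same family, so that the groups differed by age alone as far as the labels state it. The Mouse Gene 1.0 ST array reads each gene with probes along its transcript, called a transcript cluster. Of 35556 transcript clusters, 21789 carried exactly 1 gene symbol, and these stood for 19938 genes. Where a gene had several, the brightest was used.

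The sclera is the white, collagen-rich coat of the eye. Its fibroblasts lay down type I collagen and small proteoglycans, and this matrix grows and stiffens after birth. The extraocular muscles insert into it, the choroid and the retinal pigment epithelium lie against its inner face, and the conjunctiva covers its front. In the mouse the eyelids open at about the earlier of these ages. The comparison therefore set an eye that has just begun to see against that of a young adult.

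A gene was called higher or lower in week 8 at a fold change of at least 2 with an adjusted p of 0.05 or less, from limma over 29 arrays of all ages with p-values adjusted over all transcript clusters. A gene was called held where the 95% confidence interval of its log2 fold change lay wholly within a 1.5-fold change in either direction, so that a missed threshold was not read as equality. Of the 19938 genes, 244 (1.22%) were called, of which 209 (1.05%) were higher and 35 (0.176%) were lower in week 8. Another 14355 (72%) were held, and 5339 (26.8%) were neither called nor held. The median log2 fold change of all genes was -0.01, and the central 90 percent lay between -0.46 and 0.51. Without the fold threshold 4692 genes (23.5%) passed the adjusted p, 2123 of them higher (10.6%) and 2569 lower (12.9%), and 1535 of these were held within 1.5-fold. The excess of rises over falls thus belonged to the changes of at least 2-fold.

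Genes were then followed with 45 lists by function and cell type, of which 986 genes were measured. The 15 markers of scleral fibroblasts gave mean log2 signals of 8.20 to 9.11 on the week 8 arrays, against 7.99 to 8.99 on the week 2 arrays, and 13 of the 15 were brighter than the median transcript cluster of the week at both ages. The same was true of 23 of 24 genes of desmosomes and epithelial junctions at both ages, of 20 of 21 genes of the fast muscle fibre in week 8 and 18 in week 2, of 25 of 30 endothelial genes in week 8 and 27 in week 2, and of 12 of 15 genes of the retinal pigment epithelium in week 8 and 8 in week 2. Markers of neighbouring tissues were thus measured beside those of the sclera. In such tissue fewer cells of a type and less RNA per cell cannot be told apart. Week 8 replicate 2 stood apart with low epithelial and high retinal lists, week 8 replicate 6 with low endothelial and pigment epithelial lists, and week 2 replicate 5 with high lens genes. Correlations between arrays had medians of 0.983 within week 8, 0.968 within week 2 and 0.960 between the weeks.

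**Figure D1:**
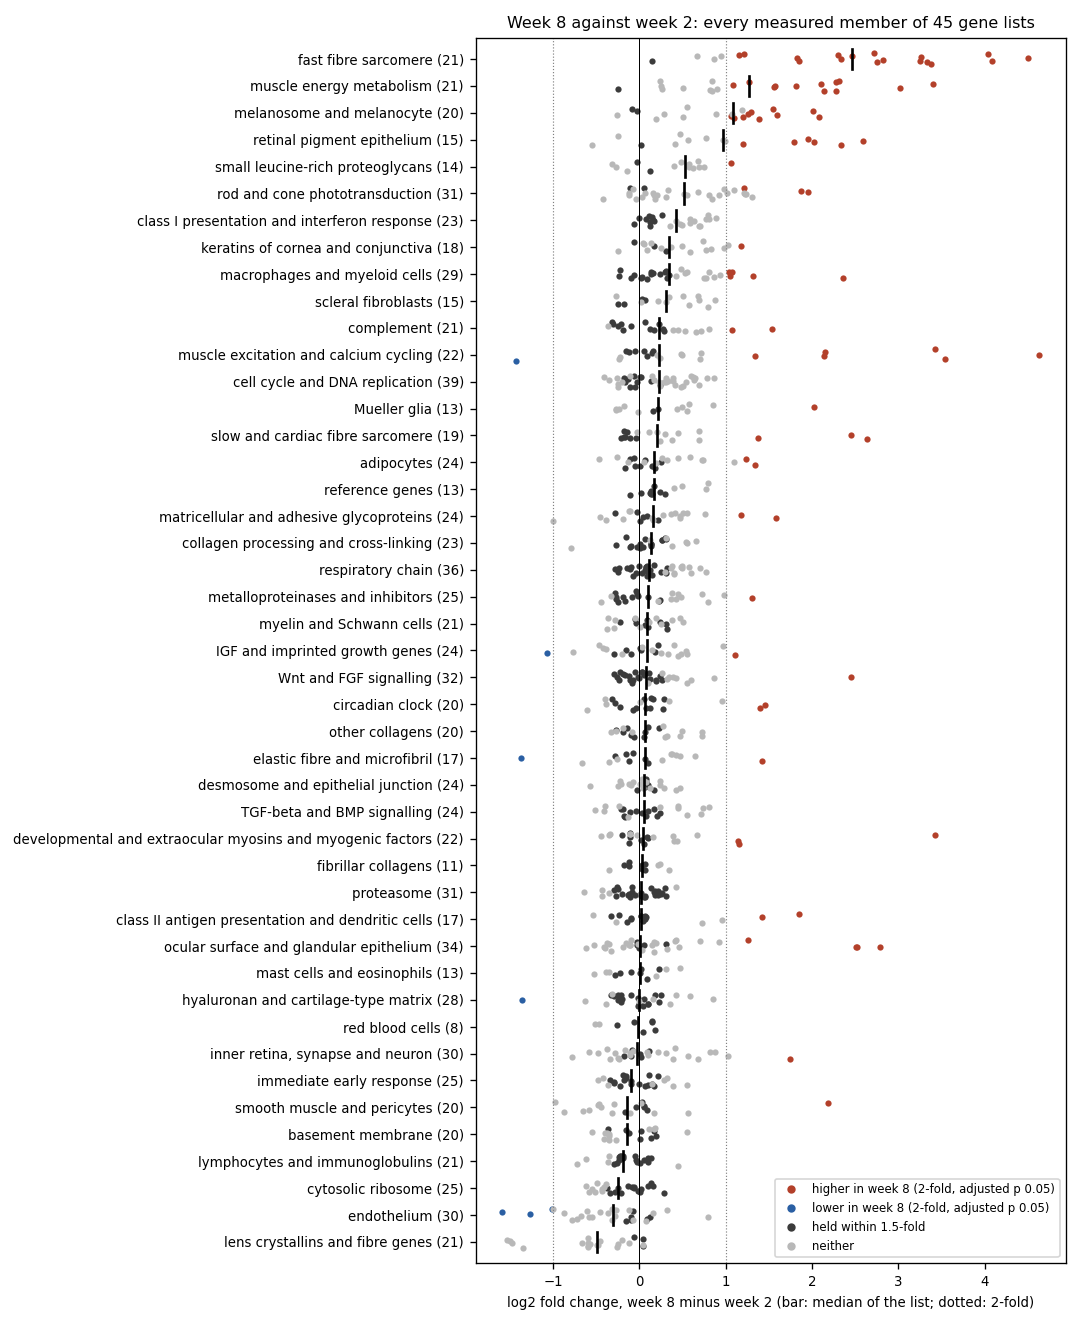
Log2 fold change (horizontal axis, week 8 minus week 2) of each measured member of the 45 lists (vertical axis, number of members in brackets), coloured by verdict, with a bar at each list's median. The fast fibre list has its median at 2.46 and the list of lens genes at -0.49, while most lists have theirs close to 0.

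Genes of the fast skeletal muscle fibre were the most raised in week 8. Of the 21 measured genes of the fast sarcomere, 17 were higher and none was lower, against 1.05% and 0.176% over all genes. Their median log2 fold change was 2.46 against -0.01 for all genes. The calcium pump of fast fibres (Atp2a1), which returns calcium to the sarcoplasmic reticulum, lay between 11.40 and 12.89 on the log2 scale in week 8 (median 12.27), against 6.51 to 8.29 in week 2 (median 7.77). With an SE of 0.39 on the log2 scale, its log2 fold change was 4.63, or 24.7-fold higher (adjusted p = 1.45e-08). Myh4, a myosin heavy chain and the motor of the fastest fibres, lay between 10.37 and 11.63 (median 11.12) in week 8, against 4.41 to 7.84 (median 6.64) in week 2, and was 22.6-fold higher (SE 0.60 on the log2 scale, adjusted p = 8.58e-06). Titin (Ttn), the spring that spans the sarcomere, lay between 10.08 and 12.04 (median 11.04), against 6.65 to 7.57 (median 6.79) in week 2, and was 16.9-fold higher (SE 0.40, adjusted p = 1.68e-07). On each of these genes every week 8 array lay above every week 2 array, as was so for 767 of all genes (3.85%). Fast troponin C (Tnnc2), nebulin (Neb) and skeletal actin (Acta1) rose 16.5-, 9.59- and 9.49-fold. Ttn, Neb and Acta1 are in this list but are not particular to fast fibres. Together, 41 of the 105 measured genes of 5 muscle lists were higher, which were 19.6% of all genes higher in week 8 and 17 of the 25 largest rises.

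Genes that mark other muscle programmes moved less. Of the 19 genes of slow and cardiac fibres, 3 were higher, 7 were held and the median was 0.20. Over all genes 1.05% were higher and 72% were held, so this list lay above the first share and below the second. The 3 were slow myosin-binding protein C (Mybpc1, 6.20-fold, adjusted p = 0.000239), alpha-actinin 2 (Actn2, 5.46-fold, adjusted p = 0.000105) and cardiac actin (Actc1, 2.60-fold, adjusted p = 0.0432). Of these, Actn2 is not particular to slow or cardiac fibres. The slow myosin Myh7 had a log2 fold change of 0.20 and the slow tropomyosin Tpm3 one of 0.38, neither called nor held. Of 22 developmental genes, embryonic myosin (Myh3) was 10.7-fold higher (log2 SE 0.85, adjusted p = 0.00476), perinatal myosin (Myh8) was 2.22-fold higher (adjusted p = 0.0391) and the neural cell adhesion molecule Ncam1 was 2.20-fold higher. The calls of some were lost without a single array, with log2 fold changes of 1.05 to 1.46 for Actc1 (without week 8 replicate 1, 2, 3, 5 or 6 or week 2 replicate 1, 2 or 3), 0.81 to 1.16 for Myh8 (without week 8 replicate 2, 3 or 5 or week 2 replicate 1, 2, 3 or 6) and 0.93 for Ncam1 (without week 2 replicate 1). The week 2 values of Myh3 ran between 1.85 and 6.82, and without the lowest of them, week 2 replicate 6, the log2 fold change of Myh3 was 2.52 in place of 3.42. Myh1, Myh2, Myh3, Myh4 and Myh8 are close copies of each other in sequence, so their separate values are uncertain. The factor Myod1, which commits cells to muscle, was held at a log2 fold change of 0.09, with 6.38 to 7.16 in week 8 and 6.16 to 6.92 in week 2, and was not held without week 8 replicate 4 or week 2 replicate 1 or 5.

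Of the 22 genes of muscle excitation and calcium cycling, 6 were higher, 1 was lower, 7 were held and 8 were neither, with a median log2 fold change of 0.22. Calsequestrin 1 (Casq1) stores calcium in the reticulum of fast fibres and rose 10.7-fold, and parvalbumin (Pvalb), which speeds their relaxation by binding calcium, was 11.6-fold higher. The release channel Ryr1, its voltage sensor Cacna1s and triadin (Trdn) rose 4.42-, 2.52- and 4.44-fold, although the 19 transcript clusters of Trdn disagreed, with log2 fold changes between -0.10 and 3.57. Phospholamban (Pln), which restrains the calcium pump of slow and cardiac muscle, fell by 2.69-fold, with 4.79 to 7.24 in week 8 (median 6.58) and 6.88 to 9.44 in week 2 (median 7.34), so that the groups overlapped (log2 SE 0.47, adjusted p = 0.0263). Without the 3 arrays that stood apart its log2 fold change was -0.84, short of 2-fold, and the call was also lost without week 8 replicate 6 (-1.12) or 1 (-1.37) or week 2 replicate 5 (-1.01) or 1 (-1.40). The pump it acts on, Atp2a2, was held at 0.16, as were the triad protein Jsrp1 at -0.16 and junctophilin 2 (Jph2), which ties the triad membranes together, at 0.05. The chloride channel Clcn1, at 0.50, and the triad adaptor Stac3, at 0.71, were not called. Of 21 genes of muscle energy metabolism, 12 were higher, with a median of 1.27, among them muscle creatine kinase (Ckm), which lay between 10.26 and 11.73 in week 8 (median 10.91), against 6.34 to 8.33 in week 2 (median 7.84). Ckm rose 10.6-fold (adjusted p = 9.59e-06), the glycolytic mutase Pgam2 8.10-fold and the coactivator of mitochondrial genes Ppargc1a 2.41-fold (adjusted p = 5.52e-05). The general respiratory chain was near the shares over all genes (1.22% called and 72% held), with 0 of 36 genes called and 24 held.

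The upstream sequences of a few genes are shown because muscle and pigment lists held many of the genes called higher, although other members of the same lists were held or not called. RefSeq promoters of build GRCm38.p6, 250 bases before the first listed start of a gene, were at hand for 32 of the 41 muscle genes and 8 of the 10 pigment genes called. The letters CAGCTG, a form of the E-box bound by myogenic factors (the same on both strands), stood in 13 of the 32 muscle promoters and in 14 of 43 promoters of muscle list genes not called, against 12.8% of 27025 promoters of this length. The letters TCATGTG, a form bound by the pigment cell factor Mitf (searched on both strands, CACATGA on the other), stood in 3 of the 8 pigment promoters and in 2 of 6 promoters of pigment list genes not called, against 3.22% of all. These were 2 of 12 motifs looked for, picked after their counts were seen, and a match is a description of the letters and not of binding. The capitals mark the match in the creatine kinase Ckm (chr7:19410844-19411093, plus strand), the calcium pump Atp2a1 (chr7:126463074-126463323, minus strand), skeletal actin Acta1 (chr8:123894776-123895025, minus strand), and, for pigment, Dct (chr14:118052247-118052496, minus strand) and Tyrp1 (chr4:80833963-80834212, plus strand).
Ckm: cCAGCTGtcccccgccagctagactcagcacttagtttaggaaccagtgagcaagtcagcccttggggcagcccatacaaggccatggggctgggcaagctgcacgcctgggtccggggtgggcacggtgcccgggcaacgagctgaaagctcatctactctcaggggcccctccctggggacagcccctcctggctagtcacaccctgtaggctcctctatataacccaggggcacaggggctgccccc
Atp2a1: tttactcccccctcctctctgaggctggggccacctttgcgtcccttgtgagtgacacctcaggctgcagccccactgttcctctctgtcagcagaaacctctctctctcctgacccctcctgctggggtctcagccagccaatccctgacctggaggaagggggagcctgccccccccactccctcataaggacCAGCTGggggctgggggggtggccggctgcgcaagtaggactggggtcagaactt
Acta1: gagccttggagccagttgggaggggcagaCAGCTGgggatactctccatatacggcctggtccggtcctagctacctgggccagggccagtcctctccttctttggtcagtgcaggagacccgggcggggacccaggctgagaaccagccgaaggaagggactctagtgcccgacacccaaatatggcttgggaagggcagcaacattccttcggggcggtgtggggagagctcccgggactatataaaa
Dct: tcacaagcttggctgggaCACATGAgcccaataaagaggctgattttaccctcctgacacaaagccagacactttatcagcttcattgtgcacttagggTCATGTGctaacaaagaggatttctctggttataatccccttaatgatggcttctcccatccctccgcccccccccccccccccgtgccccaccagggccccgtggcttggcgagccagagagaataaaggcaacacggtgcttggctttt
Tyrp1: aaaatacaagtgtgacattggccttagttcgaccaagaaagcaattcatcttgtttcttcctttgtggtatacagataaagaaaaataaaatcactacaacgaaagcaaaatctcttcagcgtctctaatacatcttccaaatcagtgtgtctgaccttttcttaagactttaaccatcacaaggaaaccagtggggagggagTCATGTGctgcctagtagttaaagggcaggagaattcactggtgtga

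Genes of pigment cells formed the next group. Of 20 genes of the melanosome and melanocyte, 10 were higher in week 8 and none was lower, against 1.05% and 0.176% over all genes. Their median log2 fold change was 1.08. Dopachrome tautomerase (Dct), which makes a melanin precursor, lay between 9.88 and 11.58 in week 8 (median 10.95), against 6.89 to 10.16 in week 2 (median 8.84), and was 4.24-fold higher (log2 SE 0.42, adjusted p = 0.000817). The melanosome glycoprotein Gpnmb, at 8.63 to 9.75 in week 8 against 5.75 to 8.49 in week 2, was 4.02-fold higher, and Mlana, a melanosome protein, was 3.03-fold higher at 7.53 to 8.75 against 5.71 to 7.42. For both the groups did not overlap. Tyrp1, a related enzyme, rose 2.93-fold (adjusted p = 0.0178) and the melanosome motor Myo5a 2.45-fold (adjusted p = 0.00581), both with overlapping groups. Without week 2 replicate 2 the log2 fold change of Tyrp1 was 1.11 and its call was lost. The receptor Mc1r was held at -0.03 and melanoregulin (Mreg) at -0.08, a verdict on Mreg that was lost in 11 of 22 alternatives, among them those without week 8 replicate 1, 3, 5 or 6 or week 2 replicate 1, 3 or 6. Balb/cJ mice lack melanin through their tyrosinase, so these transcripts were measured in eyes without melanin. The cells that they came from were not tested.

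The retinal pigment epithelium, which serves the photoreceptors and recycles their chromophore, was raised in part. Of its 15 genes 6 were higher, against 1.05% over all genes, with a median of 0.97. The retinal isomerase Rpe65 lay between 3.58 and 7.86 in week 8 (median 7.19), against 3.28 to 7.02 in week 2 (median 4.90). It was 3.89-fold higher (log2 SE 0.65, adjusted p = 0.0293), and week 8 replicate 6 sat among the week 2 arrays (log2 fold change 1.96 with it and 2.58 without it). The call was lost, at log2 fold changes of 1.59 to 1.75, without week 8 replicate 1, 2 or 3 or without week 2 replicate 1 or 2. The photoisomerase-like receptor Rgr, the retinoid carrier Rlbp1, the dehydrogenase Rdh5 and the thyroxine and retinol carrier transthyretin (Ttr) rose 5.05-, 4.05-, 3.46- and 6.03-fold, all with overlapping groups. Of 31 genes of rod and cone phototransduction 3 were higher, 2 were held and 26 were neither, against 1.05% higher and 72% held over all genes. Rod transducin (Gnat1) lay between 6.46 and 11.15 in week 8, against 5.96 to 8.09 in week 2, and was 3.67-fold higher with an adjusted p of 0.0436. Its call was lost in 8 of the 11 fits that left out 1 array, at log2 fold changes of 1.40 to 1.98, and remained without week 8 replicate 4 or 6 or week 2 replicate 6. The rod and cone transporter Abca4 was the member without overlap, at 6.62 to 8.75 against 5.02 to 6.52 (3.88-fold, adjusted p = 0.000469). Rod arrestin (Sag) and the calcium sensor recoverin (Rcvrn) had fold changes of 2.47 and 2.34 at adjusted p = 0.0732 and 0.0723 and were not called. The cone genes gave log2 fold changes of 0.03 for Opn1sw, -0.07 for Opn1mw and -0.04 for Gnat2. Otx2, a factor of photoreceptors and pigment epithelium, was 3.34-fold higher with separate groups (adjusted p = 0.000241).

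The pigment and photoreceptor counts moved with the spread of signal on each array. The interquartile range of an array lay between 2.33 and 2.67 in week 8, against 2.22 to 2.56 in week 2. With it as a covariate 3 genes in place of 10 were called in the melanosome list, 4 in place of 6 in that of the pigment epithelium and 1 in place of 3 in that of rod and cone phototransduction, against 16 in place of 17 in the fast fibre list. The melanosome list had 5 genes called without week 2 replicate 2 and 13 without week 8 replicate 6. The rod and cone phototransduction list had 2 called without week 8 replicate 1, 2, 3 or 5 or without week 2 replicate 1, 2, 3 or 5, while it had 6 without week 8 replicate 6 and 5 without week 2 replicate 6. The part of single arrays and of the spread in these results was not tested further.

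**Figure D2:**
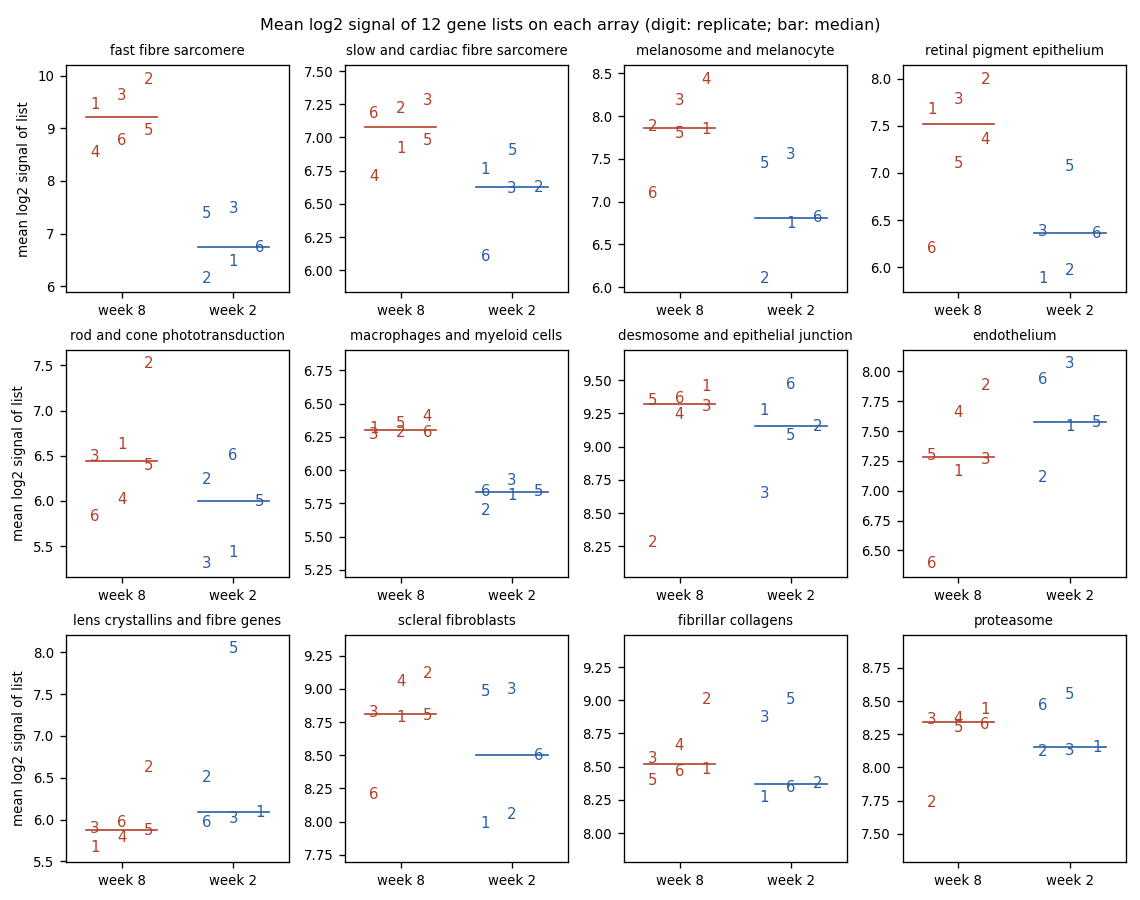
Mean log2 signal (vertical axis) of 12 lists on each week 8 and week 2 array, with the replicate number as the symbol and a bar at the median of the arrays (6 in week 8, 5 in week 2). The fast fibre list lies between 8.55 and 9.94 in week 8, against 6.15 to 7.48 in week 2, and the macrophage list is likewise separate, while the lists of fibrillar collagens, desmosomes and the proteasome overlap.

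Some macrophage and antigen presentation genes were higher, while most members of these lists were held or not called. Of 29 myeloid genes 5 were higher, 15 were held and 25 had a positive log2 fold change. On every week 8 array 12 of the 29 were higher than on any week 2 array. Over all genes 1.05% were higher, 72% were held and 3.85% were separate in this way. The mean of the list lay between 6.26 and 6.40 in week 8, against 5.70 to 5.92 in week 2. Lysozyme 2 (Lyz2), a granule enzyme of macrophages and neutrophils, lay between 7.93 and 8.55 in week 8 (median 8.28), against 5.06 to 6.64 in week 2 (median 6.12), and rose 5.14-fold (log2 SE 0.29, adjusted p = 3.06e-06). Lyz1, a close copy that its probes may not fully tell apart, rose 2.49-fold. The complement recognition chains C1qa and C1qc, made by macrophages, rose 2.05- and 2.10-fold, and the receptor for colony stimulating factor 1 (Csf1r) rose 2.07-fold (adjusted p = 5.01e-05). The invariant chain of class II molecules (Cd74) lay between 7.74 and 8.19 in week 8 (median 8.03), against 5.85 to 6.60 in week 2 (median 5.99), and rose 3.60-fold (log2 SE 0.17, adjusted p = 6.16e-08). The class II chain H2-Aa rose 2.67-fold. Cd74 and H2-Aa were the only calls among 17 genes of that list, of which 11 were held, with a median log2 fold change of 0.02. However, 2 of the 15 held myeloid genes and 0 of the 11 held class II genes were brighter than the median transcript cluster. Held thus applied mostly to dim genes in these lists. Complement C4b rose 2.90-fold (adjusted p = 8.51e-06) and the complement inhibitor Serping1 2.11-fold (adjusted p = 0.0108).

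Of 21 lymphocyte genes none was called and 16 were held, shares close to the 1.22% called and 72% held over all genes. Their median log2 fold change was -0.19, although only 2 of the 21 were brighter than the median transcript cluster. The T cell receptor chain Cd3e was held at -0.26, with 6.44 to 6.70 in week 8 and 6.61 to 7.02 in week 2. Of 23 genes of class I presentation and the interferon response none was called and 10 were held, with a median of 0.43 and 21 positive values. The calls of the macrophage list were 3 with the array spread as a covariate, without week 8 replicate 4 or without week 2 replicate 6, and 8 without the 3 arrays that stood apart. Csf1r lay just under 2-fold without week 8 replicate 4 or week 2 replicate 2 or 6, C1qc without week 8 replicate 4 or week 2 replicate 1 and C1qa without week 2 replicate 6, at log2 fold changes of 0.96 to 0.998. Serping1 was not called without week 8 replicate 4 or week 2 replicate 1 or 2 (0.83 to 0.98).

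At the surface epithelium a few genes of tears and mucus were higher, and most structural genes were not called. Keratin 5 (Krt5), the keratin of basal epithelial cells, lay between 12.21 and 13.02 in week 8 (median 12.92) and between 12.33 and 12.93 in week 2 (median 12.82), with a log2 fold change of 0.09 (SE 0.26) that was neither called nor held. E-cadherin (Cdh1), which joins epithelial cells, was held at 0.06 and integrin beta 4 (Itgb4), which anchors them, at 0.08, though not without week 8 replicate 2 or week 2 replicate 1. None of the 24 genes of desmosomes and junctions was called, against 1.22% over all genes. Of 34 genes of the ocular surface and its glands 4 were higher, 5 were held and none was lower, with a median of 0.01. Among the secreted proteins not raised, trefoil factor 3 (Tff3) was held at 0.06, and Wfdc2, at 0.46, and the membrane mucin Muc16, at -0.40, were not called. Lactoferrin (Ltf), an iron-binding protein of tears, lay between 6.96 and 9.40 in week 8 (median 8.31), against 5.58 to 6.12 in week 2 (median 5.82), and rose 5.74-fold (log2 SE 0.29, adjusted p = 1.55e-06). Lipocalin 2 (Lcn2), which binds bacterial siderophores, lay between 7.84 and 8.75, against 5.55 to 6.15 in week 2, and rose 5.69-fold. The cytochrome Cyp2f2 rose 6.91-fold (adjusted p = 0.00101) and the conjunctival mucin Muc5ac 2.40-fold (adjusted p = 0.000249). The cytokine Il1f9 (interleukin-36 gamma) of epithelia is outside these lists and was named for the size of its rise. It lay between 7.31 and 9.32 in week 8 (median 8.52), against 4.85 to 6.32 in week 2 (median 5.57), and rose 7.55-fold (log2 SE 0.29, adjusted p = 2.48e-07). Of 18 keratins 1 was called, Krt17, a keratin of injured and appendage epithelium, at 2.26-fold with overlapping groups (adjusted p = 0.0117), and it was not called with the array spread as a covariate. Krt16 had a fold change of 2.03 (adjusted p = 0.0694).

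**Figure D3:**
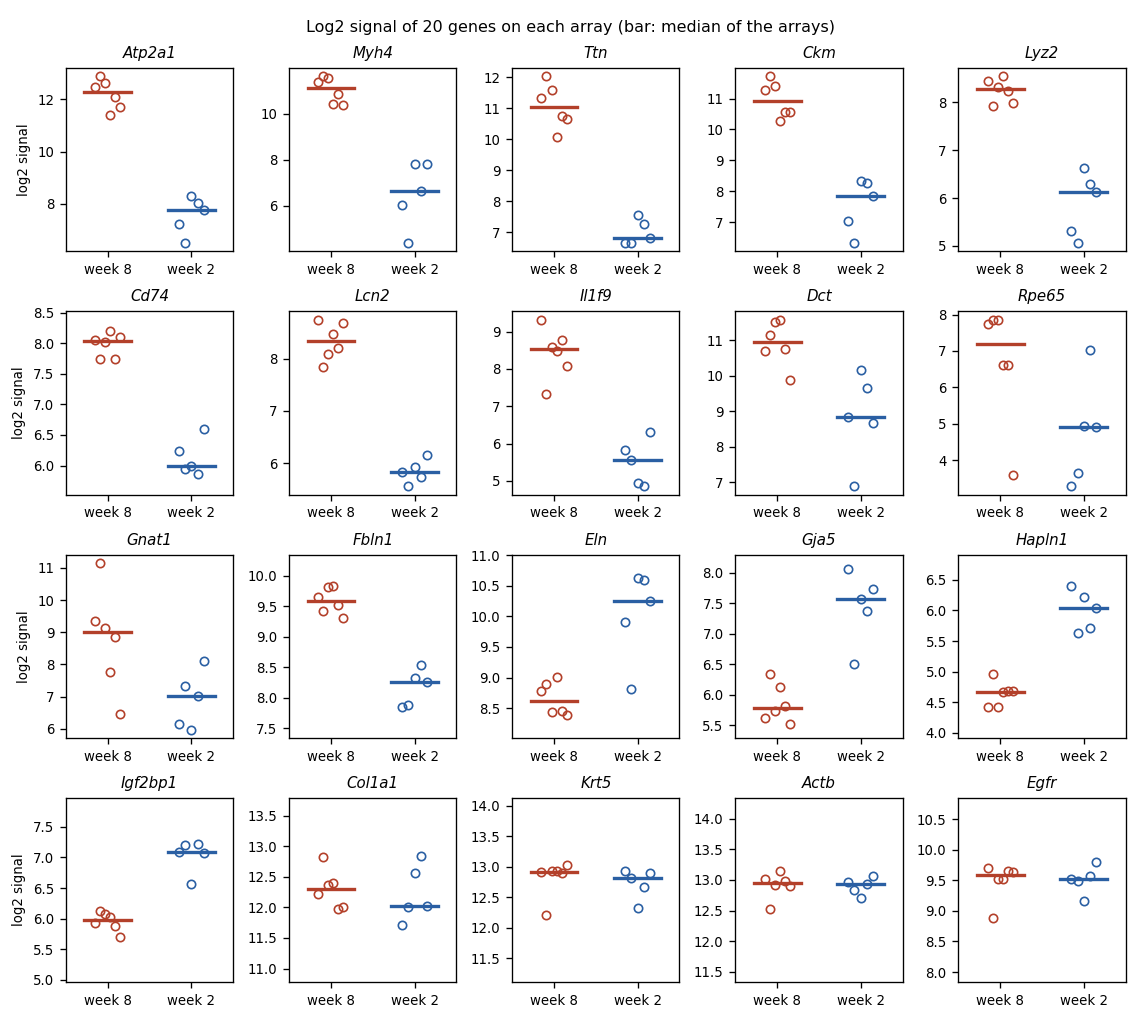
Log2 signal (vertical axis) of 20 genes on each week 8 and week 2 array, as open circles with a bar at the median of the arrays (6 in week 8, 5 in week 2). The upper rows show genes that rose, Eln, Gja5, Hapln1 and Igf2bp1 fell, and Col1a1, Krt5, Actb and Egfr have overlapping groups around the same level.

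The collagens that build the sclera were not called at either age. None of 11 fibrillar collagens, 20 other collagens, 20 genes of basement membrane and 23 of collagen processing was called, against 1.22% over all genes. Held were 7 of the fibrillar collagens, 9 of the other collagens and 8 of the basement membrane genes. These shares lay below the 72% held over all genes, so equality was not shown for many of them. The alpha 1 chain of collagen I (Col1a1) lay between 11.97 and 12.82 in week 8 (median 12.30) and between 11.72 and 12.85 in week 2 (median 12.02), and was held with a log2 fold change of 0.07. Col5a2, a chain of the collagen V that seeds fibrils, was held at 0.04, and the matrix proteins Sparc and perlecan (Hspg2) at 0.02 and 0.01. These verdicts were not firm, since the interval left the margin in 3 of 22 alternatives for Col1a1, 8 for Col5a2, 6 for Sparc and 9 for Hspg2. Among them were the fits without week 2 replicate 3 or 5 for all 4 genes, those without week 2 replicate 2 or week 8 replicate 6 for all but Col1a1, those without week 2 replicate 1 for Col5a2 and Hspg2, that without week 8 replicate 5 for Col5a2 and that without week 8 replicate 2 for Hspg2. The alpha 2 chain of collagen I (Col1a2), Col3a1 and Col6a3 had log2 fold changes of 0.21, 0.34 and 0.32 with SEs of 0.25, 0.28 and 0.26, so they were neither called nor shown equal. Of 23 genes of collagen processing 16 were held (the share of held genes overall was 72%). Lox, which cross-links collagen and elastin, had a log2 fold change of -0.79 and was not called.

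Single members of the other matrix groups differed. Elastin (Eln), the core of elastic fibres, lay between 8.39 and 9.01 in week 8 (median 8.62), against 8.81 to 10.62 in week 2 (median 10.26), and fell by 2.60-fold (log2 SE 0.27, adjusted p = 0.000555), with 1 week 2 array among those of week 8. Fibulin 1 (Fbln1), which binds elastic fibres, moved the other way, at 9.31 to 9.83 against 7.85 to 8.53, and rose 2.67-fold (adjusted p = 6.05e-06). Fibrillin 2 (Fbn2), a microfibril protein, was held at -0.07, but not in 12 of the 22 alternatives, 7 of which left out 1 array (week 8 replicate 2, 3 or 4 or week 2 replicate 1, 2, 5 or 6). The cartilage link protein Hapln1, which ties hyaluronan to proteoglycans, lay between 4.42 and 4.96 in week 8 (median 4.67), against 5.63 to 6.40 in week 2 (median 6.04), and fell by 2.57-fold (log2 SE 0.13, adjusted p = 8.96e-08). Of the 28 genes of its list 18 were held, against 72% over all genes. Prolargin (Prelp), a leucine-rich proteoglycan that binds collagen to basement membranes, rose 2.08-fold (adjusted p = 0.00557), and the list of 14 had a median of 0.53 with 11 members neither called nor held. Spondin 1 (Spon1), tenascin X (Tnxb) and stromelysin 1 (Mmp3) rose 3.00-, 2.26- and 2.46-fold, each with separate groups. Prelp was not called without week 8 replicate 2 or week 2 replicate 1 or 2, at log2 fold changes of 0.84 to 0.99.

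Growth signals differed for a few genes. The secreted Wnt antagonist Sfrp4 lay between 7.58 and 9.28 in week 8 (median 8.84), against 5.56 to 6.91 in week 2 (median 6.52), and rose 5.45-fold (log2 SE 0.38, adjusted p = 5.00e-05). It was the single call among 32 Wnt and FGF genes, of which 22 were held. Over all genes 1.22% were called and 72% were held, so the held share of this list was near that of all genes. The RNA-binding protein Igf2bp1, which is made mainly in fetal tissue and stabilises growth transcripts, lay between 5.71 and 6.12, against 6.57 to 7.22 in week 2, and fell by 2.10-fold (adjusted p = 1.67e-06), a call that was lost when its 2 transcript clusters were averaged. Insulin-like growth factor 2 (Igf2) had a log2 fold change of -0.77 (SE 0.28, adjusted p = 0.0429), short of 2-fold, at 7.37 to 8.49 in week 8 and 8.05 to 9.96 in week 2. Igfbp5, which binds that factor, rose 2.15-fold (adjusted p = 0.00591), a call lost without week 2 replicate 1 or 2 (log2 fold changes of 0.92 and 0.86). Transforming growth factor beta 1 (Tgfb1) was 1.36-fold higher with separate groups, at 8.11 to 8.41 against 7.57 to 8.02 (adjusted p = 0.0056), and Tgfb2 was held at -0.11, though not without week 2 replicate 2. The growth factor receptor Egfr was held at -0.02, and the kinase Fyn had a log2 fold change of 0.42 with an adjusted p of 0.157.

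Some vessel genes fell. Of 30 endothelial genes 3 were lower and none was higher, against 0.176% lower over all genes, with a median log2 fold change of -0.31. Connexin 40 (Gja5), the gap junction protein of arterial endothelium, lay between 5.52 and 6.34 in week 8 (median 5.78), against 6.51 to 8.06 in week 2 (median 7.57), and fell by 3.00-fold (log2 SE 0.23, adjusted p = 2.77e-05). Claudin 5 (Cldn5), which seals endothelial junctions, fell by 2.40-fold, at 6.54 to 8.07 against 7.95 to 9.10 (adjusted p = 0.000443), and connexin 37 (Gja4) fell by 2.01-fold (adjusted p = 0.00245). The kinase Bmx, of arterial endothelium, is outside the list and was named for the size of its fall, so it adds nothing to the list's count. It lay between 4.46 and 5.07, against 5.91 to 6.60 in week 2, and fell by 2.59-fold (adjusted p = 1.72e-06). Pecam1, a general endothelial marker, just missed the 2-fold limit in the same direction (adjusted p = 0.0219). Week 8 replicate 6 had the lowest endothelial mean, at 6.39 against 7.16 to 7.89 on the other week 8 arrays. The fall of Gja4 stayed under 2-fold in 7 of the 11 fits that left out 1 array, without week 8 replicate 1, 3, 5 or 6 or week 2 replicate 1, 3 or 5. The list had 2 genes lower without week 8 replicate 1 or 6 or week 2 replicate 3 or 5, and 5 without week 2 replicate 2.

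Several of the other falls were in genes with dim signals. The largest, Nudt11, a phosphohydrolase, lay between 3.60 and 4.53 in week 8, against 5.23 to 5.70 in week 2, and fell by 3.10-fold (adjusted p = 2.68e-06). Of the 35 genes lower, 14 had a mean signal below the median of all transcript clusters, against 15 of the 209 higher. Of the 8520 genes below that median 0.164% were lower, and of the 11418 above it 0.184%, so falls were not more common among dim genes. Rises were rarer there, at 0.176% below the median and 1.7% above it. The genes lower included 6 of the 1194 olfactory and vomeronasal receptor genes, whose median log2 fold change was -0.20 at a median log2 signal of 4.03, and 5 of 363 small RNA genes, among them Rnu3a (fell by 2.79-fold) and Snord33 (fell by 2.54-fold). Olfr1051 lay between 2.19 and 2.71, against 3.32 to 3.92 in week 2. With genes divided by signal into 4 equal parts the median log2 fold change was -0.15 in the dimmest and 0.14 in the brightest, while the spread of signal was wider on the week 8 arrays by the ranges given. The part of that spread in the falls of dim genes was not tested beyond the covariate, under which 44 genes were lower and 147 higher.

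Of 20 clock genes 12 were held and 2 were higher, against 72% held and 1.05% higher over all genes. The nuclear receptor Nr1d1, a repressor in the clock, lay between 9.77 and 10.18 in week 8 (median 10.08), against 8.47 to 8.80 in week 2 (median 8.71), and rose 2.63-fold (log2 SE 0.15, adjusted p = 7.33e-07). Bhlhe41, another repressor, rose 2.74-fold (adjusted p = 0.000117). Clock was held at 0.16 and the output factor Dbp at 0.12. The sources used here do not give the hour of collection.

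**Figure D4:**
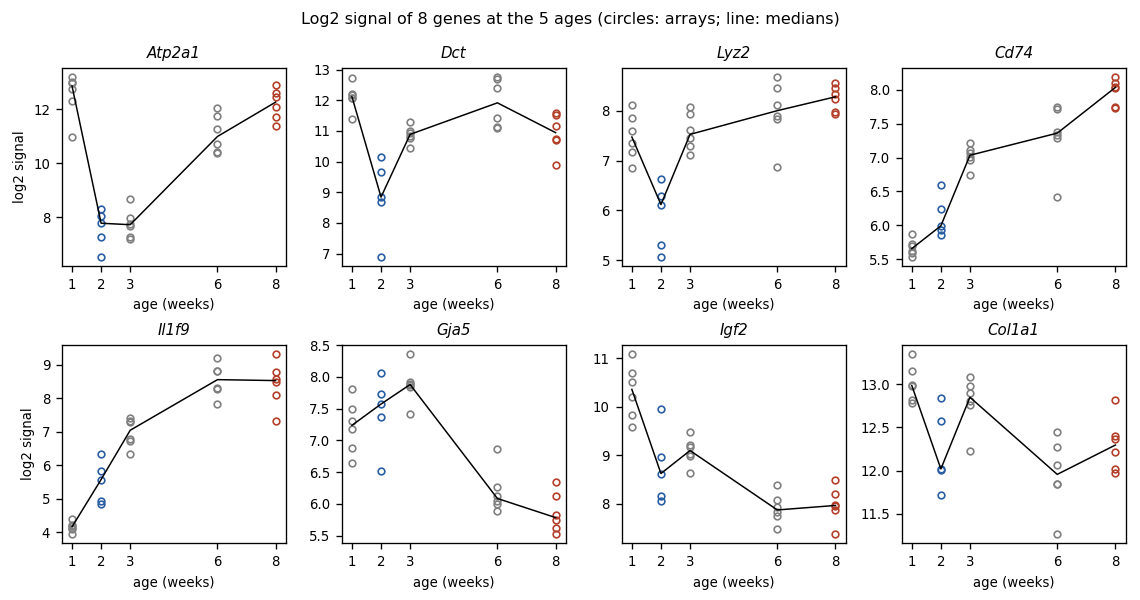
Log2 signal (vertical axis) of 8 genes on each array by age in weeks (horizontal axis), with week 8 and week 2 in colour, the other ages in grey and a line through the medians. The calcium pump Atp2a1 is high at 1, 6 and 8 weeks and low at 2 and 3 weeks, whereas Cd74 and Il1f9 are low at 1 and 2 weeks.

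Mean log2 signals of Atp2a1 at 1, 3 and 6 weeks were 12.55, 7.76 and 11.10, and those of Dct 12.10, 10.88 and 11.92, so for both the week 2 level was below that at 1 week and at 6 weeks. At the same ages Cd74 had means of 5.67, 7.02 and 7.31, and Il1f9 of 4.16, 6.97 and 8.54, so for these week 1 was the lowest age. Ltf followed them, with 5.51, 6.43 and 7.21. Several immune genes called did not. Lyz2 lay between 6.86 and 8.11 in week 1, against 5.06 to 6.64 in week 2, and Csf1r between 7.40 and 8.06, against 5.87 to 6.64. C1qa lay between 6.95 and 7.48, against 5.93 to 6.34, and C1qc between 6.72 and 7.33, against 5.31 to 6.10. For each of these genes week 2 was below week 1. H2-Aa overlapped, at 5.08 to 5.61 in week 1 and 5.24 to 6.55 in week 2. The week 1 and week 2 arrays also overlapped for Lyz1, C4b and Serping1. Gja5, by contrast, had 7.21 in week 1 and 7.88 in week 3 but 6.20 in week 6. Igf2 had its highest mean in week 1, at 10.31, with 9.08 in week 3 and 7.90 in week 6. These are descriptions of levels, without a test.

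No gene of the proteasome, respiratory chain, ribosome or reference lists was called, against 1.22% over all genes. The share held over all genes was 72%, which the proteasome list passed and the other 3 did not reach. Of 31 proteasome genes 26 were held and none was called, with a median log2 fold change of 0.02, and of 36 respiratory chain genes 24 were held with a median of 0.11. The proteasome subunit Psmd2 lay between 8.87 and 9.55 in week 8 and between 9.02 and 9.49 in week 2, at a log2 fold change of 0.07. Of 25 ribosomal protein genes 16 were held, yet the median was -0.25, and 19 of the 25 had a negative value. Rps6 was held at 0.13. Among 13 genes in use as references 9 were held, beta actin (Actb) at 0.02, with 12.53 to 13.14 in week 8 and 12.70 to 13.07 in week 2, Hprt at 0.15 and the elongation factor Eef1a1 at -0.11. Pgk1 and B2m had log2 fold changes of 0.80 and 0.77 and were not held. Gapdh had no transcript cluster with its symbol alone and is not analysed here.

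**Figure D5:**
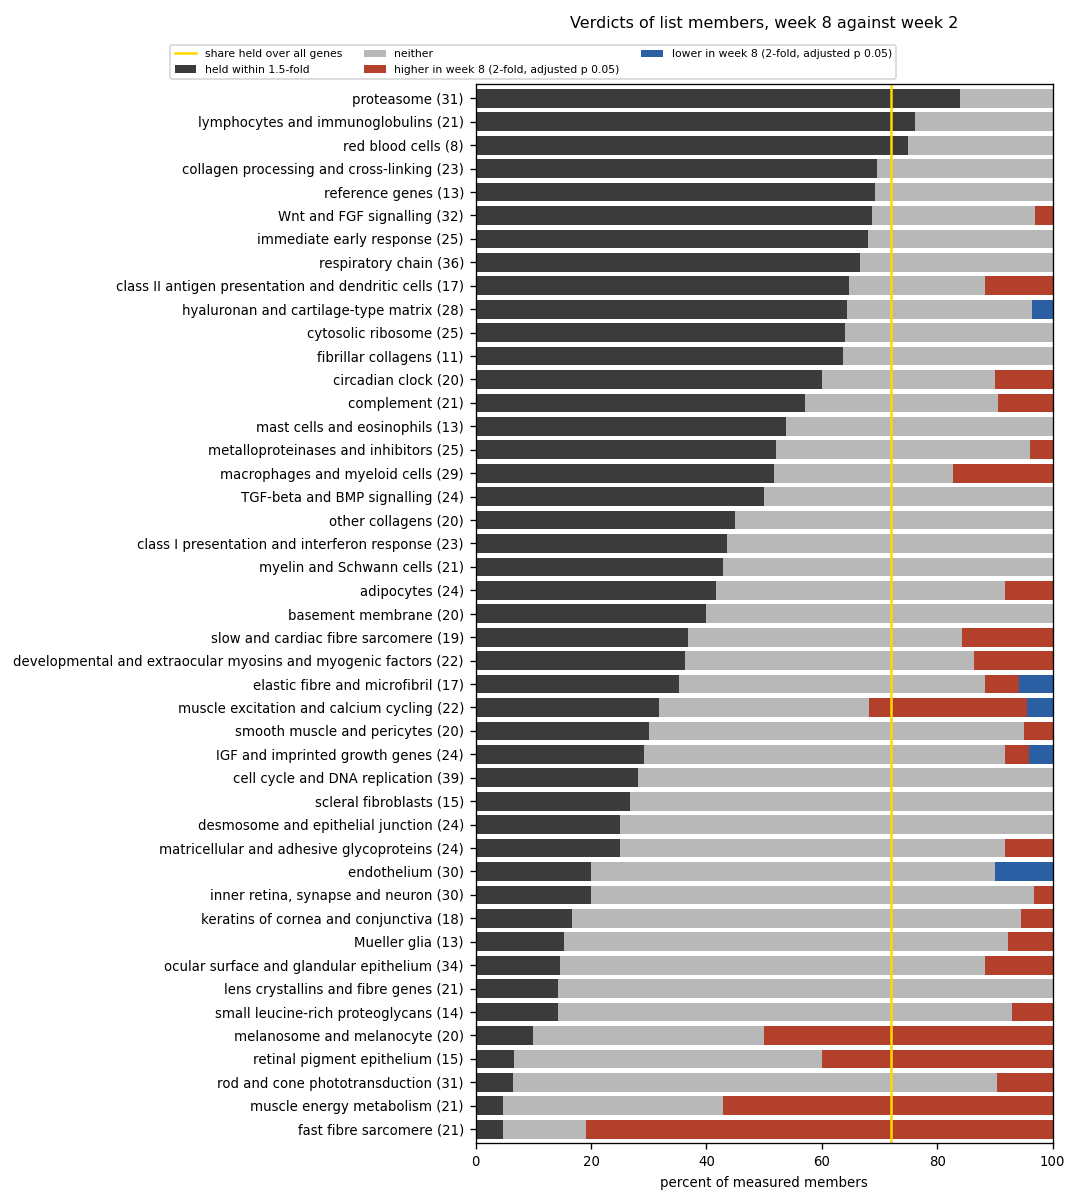
Share of the measured members of each list (horizontal axis, percent) that were held within 1.5-fold, neither, higher or lower in week 8, with a line at the 72% held over all genes. The proteasome list is 83.9% held and the fast fibre list 4.76%.

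Equality could be shown only where the arrays of a week were close together. The median width of the 95% interval was 0.49 on the log2 scale for proteasome genes and 1.18 for desmosome genes, of which 6 of 24 were held although their median log2 fold change was 0.06. The lens list, with 3 of 21 genes held and none called, had intervals with a median width of 1.89. Its mean ran between 5.66 and 6.62 on the week 8 arrays, against 5.96 to 6.51 on 4 week 2 arrays and 8.04 on week 2 replicate 5. Of 39 genes of the cell cycle 11 were held and none was called, among the held Mcm2 at -0.06 and Stmn1 at 0.01. Inner retina and neuron genes had a median of -0.03 with 6 of 30 held, and those of myelin and Schwann cells 0.09 with 9 of 21 held. Mast cell genes were held in 7 of 13 and those of red blood cells in 6 of 8, against 72% over all genes. Of these held genes, 1 of the mast cell list and 0 of the red blood cell list were brighter than the median transcript cluster. For such dim genes, held says little about the cells. Of 24 adipocyte genes 10 were held, adiponectin (Adipoq) among them at -0.05, while Car3 and Scd1, which muscle or other tissue also express, rose 2.53- and 2.36-fold.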

How the data were processed

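The authors deposited log2 signals of 35556 transcript clusters on 30 arrays. The labels and methods name robust multiarray averaging with removal of a scan date effect in one place and GCRMA in Partek 6.5 in another, so the normalization behind the values is not settled. The sources used here do not say whether scan dates and weeks were separate, and a scan date can shift whole arrays. The log2 values were used as deposited. Limma 3.58.1 in R 4.3.3 was fitted with 1 mean per week, and p-values were adjusted by Benjamini and Hochberg. The planned fit used all 30 arrays. After the data were seen, week 2 replicate 4 was left out and week 6 replicates 4 and 6 were given a term of their own, because their values follow from those of other arrays, and this left 23 residual degrees of freedom. SEs are of the log2 fold change, with n = 6 arrays in week 8 and 5 in week 2. They depend on this number and on the spread of each gene between arrays of the same week, estimated over all ages. The fit was tested on simulated data. Symbols came from the platform annotation, and 1621 transcript clusters with several symbols and 12146 with none were left out. The 45 lists, from general knowledge, and the members named were chosen with earlier results of these data known. Named genes are the 15 largest rises and falls without overlap, up to 6 called and 4 held members of each list, the 10 brightest held genes and genes the study follows, with further members named when a list is described. Replicate numbers did not pair the mice. Alternatives were other scalings, weights, covariates and filters, and each array left out in turn. The removal of 3 arrays together was chosen after seeing the data.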

Additional observations from a re-analysis of the deposited data

Results flagged for a closer look

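On some genes and list means 1 array lay apart from the others of its week by a gap that chance gives in about 1 of 20 groups, and this was so in 37 of 366 groups looked at (10.1%). All values are log2 signals, and the causes were not tested.

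Week 8 replicate 6 lay below the other week 8 arrays on Rpe65 (3.58, against 6.60 to 7.86), Myo5a (6.05, against 7.49 to 8.10), Sfrp4 (7.58, against 8.65 to 9.28), Igfbp5 (10.29, against 11.36 to 11.70), Fyn (6.40, against 7.05 to 7.44) and Apod (8.07, against 8.78 to 9.09). It was also low in the means of the small leucine-rich proteoglycans (6.93, against 7.74 to 8.01) and the scleral fibroblast markers (8.20, against 8.79 to 9.11). It lay above the others on Serpina3n (9.99, against 7.79 to 8.36) and Rnu3a (6.32, against 5.16 to 5.54).

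Week 8 replicate 2 was low on epithelial genes, among them Krt5 (12.21, against 12.90 to 13.02 on the other week 8 arrays), Cdh1 (9.01, against 9.81 to 10.03), Itgb4 (8.54, against 9.36 to 9.76), Egfr (8.88, against 9.53 to 9.70), the defensin Defb1 (5.19, against 6.26 to 6.76), Tmem45b (5.94, against 6.74 to 7.03) and Il1a (4.77, against 6.78 to 7.56). Its means of desmosome genes (8.28, against 9.24 to 9.46) and of ocular surface genes (7.92, against 8.85 to 9.08) were low too. So were Clock (8.08, against 8.80 to 9.19), Eef1a1 (12.45, against 12.74 to 12.91), Psmd2 (8.87, against 9.32 to 9.55) and the means of the cell cycle (6.66, against 7.42 to 7.82) and proteasome lists (7.74, against 8.30 to 8.44). The same array was high in the means of inner retina (6.45, against 5.78 to 5.91), lens (6.62, against 5.66 to 5.96) and hyaluronan genes (6.45, against 6.23 to 6.28). Week 8 replicate 3 was high in the mean of the clock list (7.76, against 7.60 to 7.66).

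Of the week 2 arrays, replicate 3 was low on Mreg (7.46, against 8.03 to 8.15 on the others), Itgb4 (8.64, against 9.32 to 9.42), Igf2bp1 (6.57, against 7.07 to 7.22), Cd109 (8.13, against 8.73 to 8.87) and the mean of the cell cycle list (6.90, against 7.24 to 7.36). Replicate 6 was low on Myh3 (1.85, against 5.95 to 6.82) and replicate 1 on Nudt11 (5.23, against 5.58 to 5.70). Replicate 2 was high on Mc1r (6.65, against 6.15 to 6.20), and replicate 5 in the mean of the lens list (8.04, against 5.96 to 6.51).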

How the results depend on the processing

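Without a fold threshold 4692 genes passed, 2123 higher and 2569 lower, and 44 of the 45 lists held a gene called, against 26 with it. With only the transcript clusters above the median signal, 21 genes were lower and 8081 were held, of fewer genes tested. Leaving out 1 array in turn gave 217 to 280 genes called, 181 to 245 higher, 34 to 43 lower, 13145 to 14380 held and 25 to 27 lists with a gene called. With the array spread as a covariate 191 genes were called and 77% of them were higher, against 85.7% otherwise, and 170 of the 191 were among the 244. Leaving out the 3 arrays that stood apart, a choice made after seeing the data, gave 353 called, 232 of them among the 244. With all 30 arrays counted as independent, as first planned, 253 genes were called, 244 of them the same. A fit with the replicate number as a block gave 246 genes called, of which 237 were among the 244, while correlations of same-numbered arrays lay between -0.32 and 0.17. Of 99 called genes reported here, 27 lost the call under at least 1 of 22 alternatives and none changed direction. Of 25 held, 14 left the margin under at least 1, Fbn2 and Mreg in the most. The causes were not tested.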

Other observations

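Genes outside the lists, picked after their values were seen, included further secreted and defence proteins. Arachidonate 15-lipoxygenase (Alox15), which oxidises fatty acids, lay between 9.35 and 10.67 in week 8, against 7.27 to 8.62 in week 2, with a log2 fold change of 2.32 (SE 0.38, adjusted p = 9.14e-05). The protease inhibitor of stratified epithelia Spink5 rose 4.26-fold, on every week 8 array above any week 2 array, and the peptidoglycan recognition protein Pglyrp1, which binds bacterial walls, rose 3.61-fold, at 11.81 to 12.70 against 9.78 to 11.45. The interleukins Il1a and Il33 rose 4.18- and 2.76-fold, the first with overlapping groups, and the acute phase inhibitor Serpina3n rose 2.93-fold (adjusted p = 0.000361).

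A further set, picked in the same way, is made by fibroblasts or carried in extracellular fluid. Dermatopontin (Dpt), a matrix protein that binds decorin, lay between 7.99 and 8.52 in week 8, against 5.19 to 6.88 in week 2, and rose 4.18-fold (log2 SE 0.42, adjusted p = 0.000853). The fibroblast peptidase inhibitor Pi16 rose 2.57-fold and the secreted glutathione peroxidase Gpx3 rose 4.18-fold, both with separate groups. The prostaglandin synthase Ptgds, at 7.75 to 9.90 against 6.03 to 7.45, rose 4.68-fold (adjusted p = 9.16e-05), and apolipoprotein D (Apod) rose 2.48-fold with overlapping groups.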
